A study of Mus musculus with 6 samples.

Results

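The haematopoietic cytokine receptor genes described here are 8 genes chosen by name, Csf2rb, Csf2rb2, Csf2ra, Il3ra, Csf3r, Il6ra, Il6st and Il2rg, and all 8 were found among the 21881 genes of each of 2 deposited RNA-seq tables. The cells were mouse leukemia cells of strain C57/B6X129SV, which express AE9a, a shortened AML1-ETO fusion protein that causes leukemia, and in which both Id1 alleles are flanked by loxP sites and CreER, a tamoxifen-inducible Cre recombinase, is present. All 6 samples carry these alleles. They form 3 groups of 2, namely control, CBD and 4-OHT. CBD, used by the study as an Id1 inhibitor, was given at 15 µM for 16 h, and 4-hydroxytamoxifen (4-OHT) at 0.1 µM for 48 h. The labels name no vehicle for the control, no promoter for CreER and no 4-OHT arm without loxP sites, and do not state if samples of one group came from separate cultures. Each table holds 1 FPKM (a fragment count divided by transcript length and library size) for its own control column and 1 for the treated group. The depth of the libraries is unknown and no value has an SD or an interval. A gene is said to have risen or fallen, below, where the q of the authors' Cuffdiff test, as deposited, is under 0.05.

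Cytokine receptors of this class have no enzyme activity of their own and signal through bound JAK kinases, which phosphorylate STAT factors. Csf2rb encodes the common beta chain that pairs with the ligand-binding alpha chains for GM-CSF (Csf2ra), IL-3 (Il3ra) and IL-5. Mice carry an additional beta gene, Csf2rb2, whose product serves IL-3 alone. In blood cells the beta chain acts mostly through JAK2 and STAT5, and in mast cells, basophils and myeloid progenitors it carries survival and growth signals. Csf3r encodes the G-CSF receptor of the neutrophil lineage. Il6ra binds IL-6 and recruits the shared signal transducer gp130, the product of Il6st. Il2rg encodes the common gamma chain shared by the receptors for IL-2, IL-4, IL-7, IL-9, IL-15 and IL-21, and signals through JAK3.

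The beta chain genes lie close together on chromosome 15 in mm9, Csf2rb2 at chr15:78112940-78136033 and Csf2rb at chr15:78156420-78181431, and are near copies. In the GENCODE vM21 transcripts (GRCm38) their coding sequences of 2691 and 2637 bases were identical at 95.2% of 2631 aligned bases, with a longest gap of 54 bases in Csf2rb2. Stretches of both are shown because they bear on how far reads of the genes can be told apart. Capitals mark the bases that differ. The first 120 coding bases hold 4 differences:

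Csf2rb: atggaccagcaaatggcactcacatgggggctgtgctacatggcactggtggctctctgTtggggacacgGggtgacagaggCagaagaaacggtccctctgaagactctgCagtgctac
Csf2rb2: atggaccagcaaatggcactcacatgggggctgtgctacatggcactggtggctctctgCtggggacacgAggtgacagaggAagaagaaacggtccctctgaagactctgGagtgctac

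The ungapped stretch of 120 coding bases with the most differences holds 22 of them. It runs from coding base 309 to 428 in Csf2rb and from 312 to 431 in Csf2rb2:

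Csf2rb: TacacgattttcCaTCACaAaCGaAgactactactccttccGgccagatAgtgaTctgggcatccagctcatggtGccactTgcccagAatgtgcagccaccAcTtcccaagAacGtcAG
Csf2rb2: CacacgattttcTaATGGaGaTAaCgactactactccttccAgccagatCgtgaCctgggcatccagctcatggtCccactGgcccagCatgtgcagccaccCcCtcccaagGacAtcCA

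Of all windows of 36 bases in the longest Csf2rb transcript, 24.9% were found exactly in a Csf2rb2 transcript. The share was 18.4% for windows of 50 bases and 10.7% for windows of 75 bases. Neither the read length nor the handling of reads that match both genes is stated in the labels, so the separate values of Csf2rb and Csf2rb2 are uncertain and their sum is given as well.

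The beta chain genes were the highest of the 8 in every column. Csf2rb stood at 526 FPKM in the control of the CBD table and 929 with CBD, and at 223 in the control of the 4-OHT table and 401 with 4-OHT. Between 140 and 480 of the 21881 genes stood above it in a column. Csf2rb2 stood at 243 FPKM in the control and 556 with CBD, and at 108 in the control and 202 with 4-OHT. Csf2rb was 2.16 times Csf2rb2 in the control of the CBD table, 1.67 times with CBD, 2.07 times in the control of the 4-OHT table and 1.99 times with 4-OHT. Together these genes made up between 84.4% and 91.4% of the summed FPKM of the 8 genes.

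Il2rg came next, at chrX:98459726-98463545 in mm9. It stood at 79.2 FPKM in the control and 136 with CBD, and at 59.3 in the control and 70.1 with 4-OHT. Csf2ra, at chr19:61300305-61304321, was far lower, with 1.24 FPKM in the control and 2.27 with CBD, and 1.33 in the control and 1.14 with 4-OHT. The gene of the common beta chain was thus between 168 and 423 times as high as that of the GM-CSF alpha chain on the FPKM scale, which is per length. The alpha chain gene for IL-3, Il3ra, at chr14:15179009-15188004, had 0.147 FPKM in the control and 0.441 with CBD, and 0.289 in the control and 0.326 with 4-OHT. With 1 value per column, no spread shows which neighbours in this order differ.

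The other 3 genes were near the bottom of the range. Csf3r, at chr4:125701903-125721684, stood between 0.122 FPKM with 4-OHT and 0.178 in the control of the same table. Il6ra, at chr3:89673246-89717084, had 0.0286 FPKM in the control and 0.227 with CBD, and 0.0112 in the control and 0.0110 with 4-OHT. Il6st, at chr13:113254278-113297068, stood at 0.0311 FPKM in the control of the CBD table and 1.64 with CBD, and had 0.140 FPKM in the other control and 0.171 with 4-OHT. Csf3r, Il6ra and Il3ra stayed under 1 FPKM in every column. Csf2rb, Csf2rb2, Il2rg and Csf2ra kept the same order from highest to lowest in all 4 columns, and the order of the lower genes changed between columns.

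**Figure D1:**
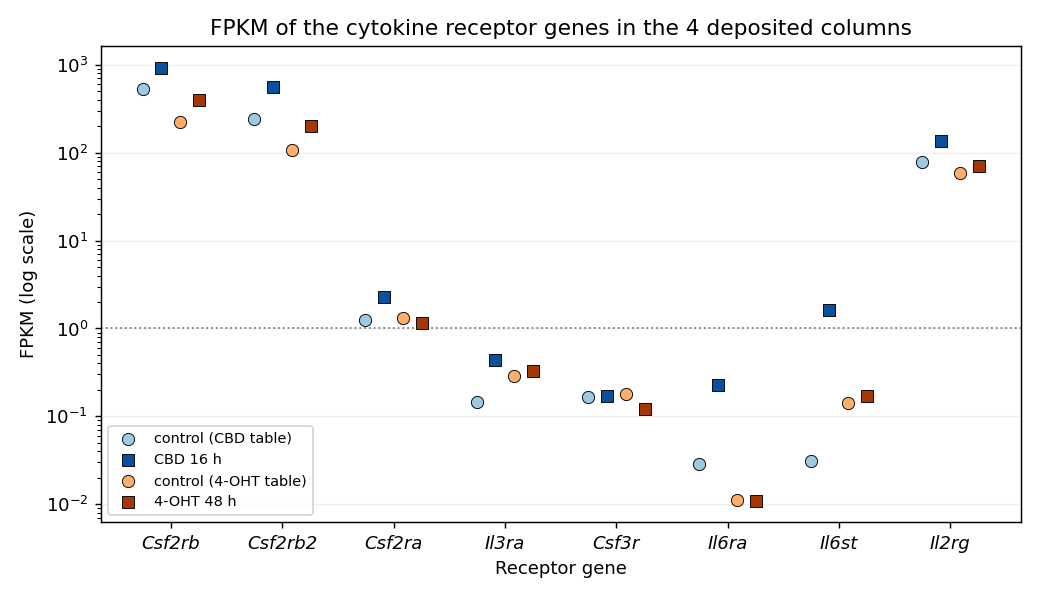
FPKM (log axis) of the 8 receptor genes in the 4 deposited columns, 1 point per column with no error since each is a single group value. Csf2rb, Csf2rb2 and Il2rg lie between 59.3 and 929 FPKM and the other 5 genes at 2.27 FPKM or less, and the dotted line marks 1 FPKM.

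Id1, which both treatments target, stood at 34.2 FPKM in the control and 11.95 with CBD, which did not pass the test (q = 0.133, the authors' deposited table), and fell with 4-OHT from 15.4 to 0.741 FPKM (q listed as 0, the authors' deposited table). Of 12 genes fixed as markers of blood progenitors, Spn, Myb, Gata2, Runx1, Kit, Sfpi1 (PU.1), Tal1 and Lyl1 stood at 24.4 FPKM or more in every column. Ptprc, which encodes the leukocyte antigen CD45, was at 0.417 FPKM or less, and the granule enzyme gene Mpo and the myeloid antigen gene Cd33 were under 1 FPKM in every column. Among 16 mast cell and basophil markers the summed level was between 872 and 2428 FPKM. None was listed at 0, and between 0 and 3 of them were under 1 FPKM in a column. Kit and Gata2 belong to this list and to that of the progenitors. Of 12 neutrophil markers, 11 were under 1 FPKM in each column.

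With CBD, Il6st and Il2rg rose, and no receptor gene of the 8 fell. These are 2 of 6 genes that the authors tested, Csf3r and Il6ra being marked as not tested. Across all genes tested with CBD, 18.4% rose and 7.74% fell. For the 6 tested genes the log2 folds, computed with 0.1 FPKM added to each value, had a median of 0.98, against 0.29 for all 13751 tested genes. The 6 include Il6st, at 0.0311 FPKM in the control and 1.64 with CBD. In the 4-OHT table, where it had 0.140 and 0.171 FPKM, Il6st was not tested, so it may have entered the 6 through its CBD value. The 8 genes had a higher FPKM with CBD than in its control, but only Il6st and Il2rg passed the test. For Csf3r the values were 0.169 with CBD and 0.168 FPKM in the control. A higher value with CBD was common, as the median log2 fold of 0.29 over all 13751 tested genes shows. The share of all genes above that control was not counted.

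Il2rg had a CBD value 1.72 times that of its control, a log2 fold of 0.78 (q = 0.00796, the authors' deposited table). The CBD value is also above the other table's control, by a log2 fold of 1.19. Il6st had a log2 fold of 3.73 (q = 1.93e-07, the authors' deposited table) and, against the other control column, of 2.86. The size of this fold rests on low control values: it was 5.33 with 0.01 FPKM added and 1.36 with 1 FPKM added, and the plain ratios of CBD to the controls were 52.8 and 11.7. Its level with CBD, 1.64 FPKM, placed it at rank 10753 of the 21881 genes.

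Csf2rb and Csf2rb2 had more FPKM with CBD, by log2 folds of 0.82 and 1.19, without passing the test (q = 0.715 and q = 0.265, the authors' deposited table). Their summed level was 769 FPKM in the control and 1485 with CBD, 1.93 times as high. Among genes at 100 FPKM or more in the control with a log2 fold from 0.75 to 0.95, 47 of 83 passed the test with CBD. This range, chosen after the values were seen, holds the fold of Csf2rb but not that of Csf2rb2. Among the 16 mast cell and basophil markers, a lineage that uses the beta chain, 6 rose and 1 fell with CBD, and their summed level was 1195 FPKM in the control and 2428 with CBD. The mast cell carboxypeptidase gene Cpa3 alone went from 71.9 to 658 FPKM. The marker that fell, Hdc, went from 294 to 102 FPKM (q = 1.2e-08, the authors' deposited table). Whether these changes bear on the receptor values was not tested. Csf2ra and Il3ra had log2 folds of 0.82 and 1.13 and did not pass (q = 0.553 and q = 0.344, the authors' deposited table).

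The rise of Il6st came in a column that also holds transcripts of brain. Of 22 brain markers, all tested, 20 rose with CBD and none fell. Only 9 of the 22 were tested with 4-OHT, and 15 were under 1 FPKM in each control column. Markers low in the controls may thus have entered the test through their CBD values. The list was also chosen with earlier results known, so the count of rises was partly set in advance. The summed level of the 22 markers was 729 FPKM with CBD and 136 in its control. It was 76.4 FPKM in the control of the 4-OHT table and 91.95 with 4-OHT. The neuronal gene Snap25 had 0.0697 FPKM in the control and 36.7 with CBD. The myelin gene Mog had 7.23 FPKM with CBD and is listed at 0 elsewhere, without passing the test (q = 0.0689, the authors' deposited table). Microglia, the macrophages of the brain, were marked by 12 genes, of which 4 rose with CBD and none fell, and their summed level was 66.3 FPKM with CBD and between 28.5 and 32.3 in the other columns. The 4 that rose were Csf1r, C1qa, Trem2 and Olfml3. The microglia genes P2ry12, C1qc and Tmem119 are listed at 0 in the control of the CBD table and at 0.504, 3.14 and 1.45 FPKM with CBD. They did not pass the test (q = 0.177, q = 0.168 and q = 0.168, the authors' deposited table). Of 14 monocyte and macrophage markers, 5 of 12 tested rose and none fell, and the summed level was 46.1 FPKM with CBD and between 7.26 and 11.1 in the other columns. The microglia and macrophage lists share genes, Csf1r and C1qa among those that rose, so their counts and sums are not separate evidence. With 4-OHT, 2 of the 12 microglia markers and 3 of the 14 monocyte and macrophage markers were tested. The limit given for the brain markers thus holds for these lists too. The part of brain, microglia and macrophage transcripts in the levels of Il6st and Il6ra was not tested. In a bulk sample, fewer or more cells of a type and less or more RNA per cell cannot be told apart.

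**Figure D2:**
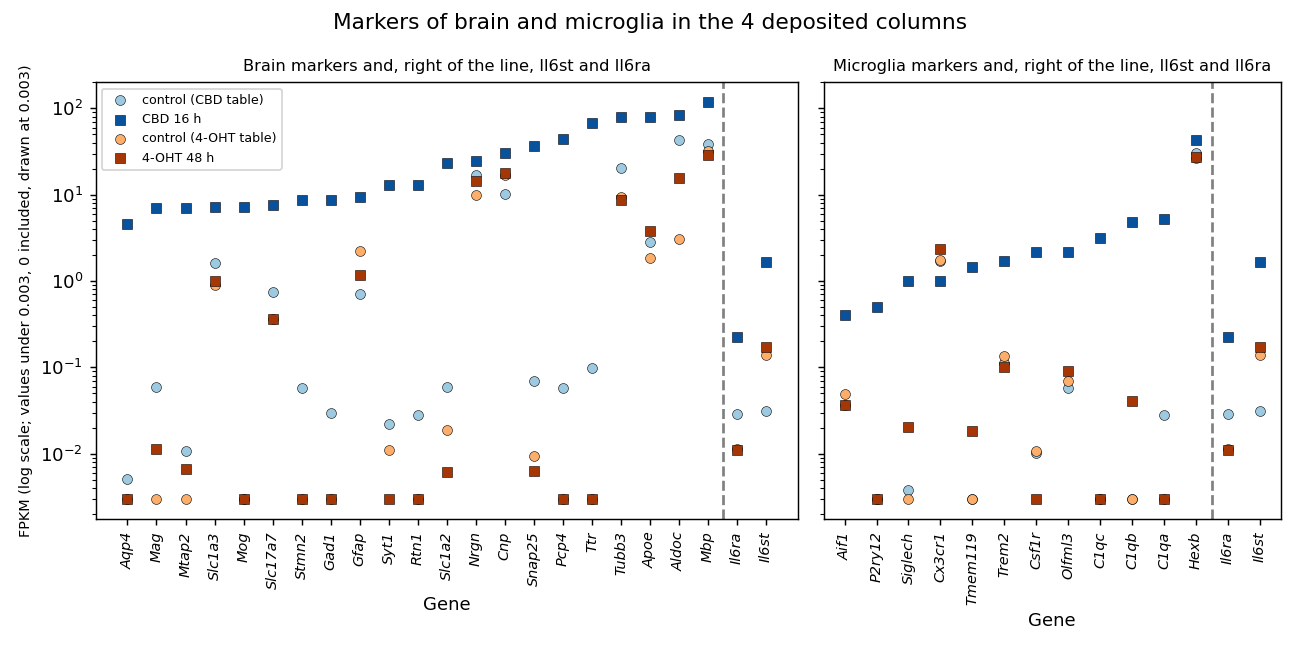
FPKM (log axis) of 21 of the 22 brain markers and of 12 microglia markers in the 4 deposited columns, with Il6ra and Il6st to the right of the dashed line in each panel, and values under 0.003 FPKM, 0 included, drawn at 0.003. The CBD points lie above the other 3 for all 21 brain markers drawn, for 11 of 12 microglia markers (all but Cx3cr1), and for Il6ra and Il6st.

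With 4-OHT, Csf2rb, Csf2rb2 and Il2rg rose against their own control, and no gene of the 8 fell. These are 3 of 5 tested genes, Csf3r, Il6ra and Il6st being marked as not tested. Across all genes tested with 4-OHT, 27.2% rose and 16.9% fell. The median log2 fold was 0.24 for the 5 tested genes and 0.05 for all 11232 tested genes. As Csf2rb and Csf2rb2 can share reads, their calls are not separate evidence.

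Csf2rb stood 1.80 times and Csf2rb2 1.87 times as high with 4-OHT as in the control, log2 folds of 0.85 and 0.90, where the authors' deposited table lists both q as 0. Their summed level was 331 FPKM in the control and 603 with 4-OHT. The mast cell and basophil markers moved otherwise, with 5 of 16 rising, 6 falling and summed levels of 949.8 FPKM in the control and 872 with 4-OHT. Against the other control column 1 of these 5 and 4 of these 6 kept their direction. Il2rg moved less, by a log2 fold of 0.24 (q = 0.000315, the authors' deposited table). Csf2ra had a log2 fold of −0.20 and Il3ra of 0.13, and neither passed the test (q = 0.513 and q = 0.847, the authors' deposited table). The fold of Csf2rb was nearly as large with CBD as with 4-OHT and passed only in the 4-OHT table. The difference between the treatments was not tested.

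The direction of these rises depends on the control column. The 4-OHT values of Csf2rb, Csf2rb2 and Il2rg are below the control column of the separately made CBD table, by log2 folds of −0.39, −0.27 and −0.17. Of all genes that rose with 4-OHT, 51.2% also stood above the other control column, and none of these 3 did. The control columns themselves differed: Csf2rb was 2.36 times and Csf2rb2 2.25 times as high in the control of the CBD table, and Il2rg 1.34 times. Of the 4 receptor genes that reached 1 FPKM in at least 1 control column, 2 were at least 2-fold higher in the control of the CBD table, as were 7.90% of all 10322 genes at that level. No test was made between the control columns, because the tables were made separately and the number of libraries behind each is not stated.

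Against either control column, in contrast, the CBD values of these genes were higher. Csf2rb with CBD was 1.77 times its own control and 4.16 times the other, and Csf2rb2 was 2.29 and 5.15 times. These 4 receptor genes had a CBD value above both, as had 40.4% of all genes at that level, and for 4-OHT the counts were none of 4 and 28.8%. The order CBD, its control, 4-OHT, its control, from highest to lowest, was shared by Csf2rb, Csf2rb2 and Il2rg and by 14.8% of all genes at that level.

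**Figure D3:**
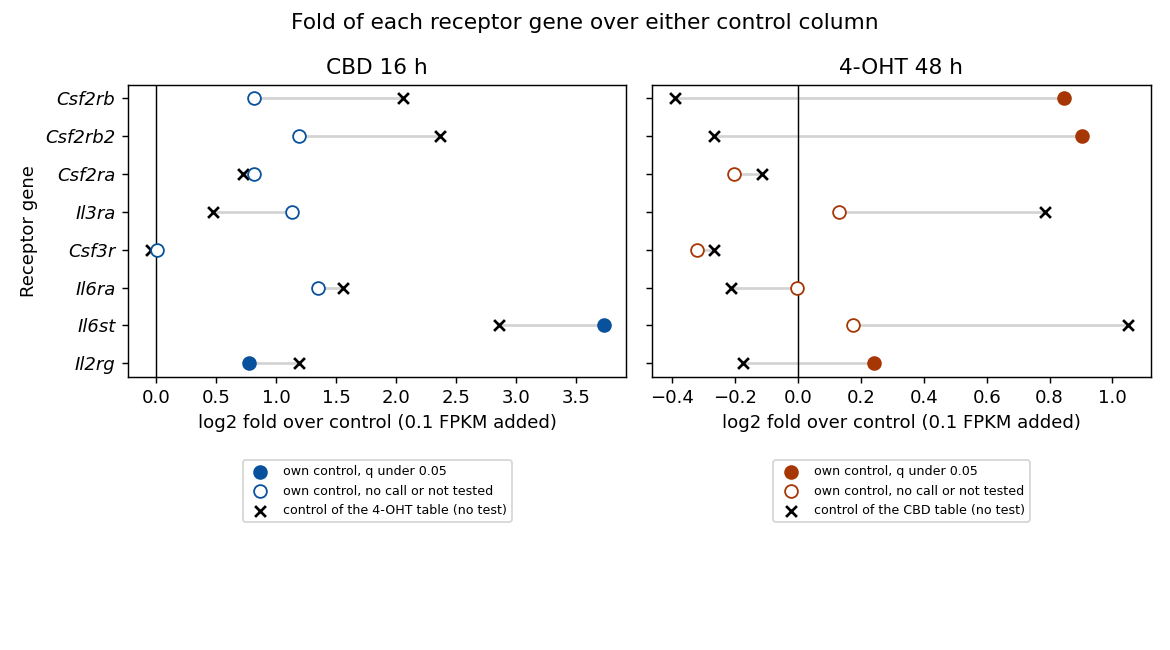
Log2 fold of each receptor gene (0.1 FPKM added) with CBD (left) and 4-OHT (right), over the control of its own table (circles, filled where q is under 0.05) and over the control of the other table (crosses, no test), with a separate scale in each panel. The crosses of Csf2rb, Csf2rb2 and Il2rg lie right of 0 with CBD and left of 0 with 4-OHT.

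The genes with the most similar pattern were searched among 8501 named genes tested in both tables and at 1 FPKM or more in every column. The measure was the distance between the log2 values of the 4 columns (0.1 FPKM added), each gene centred on its mean. For Csf2rb these were Adssl1, Spna2 and Dcxr, at distances of 0.070, 0.12 and 0.13. For Csf2rb2 they were Irf1, which encodes an interferon regulatory factor, N4bp2l1 and Dcxr, at 0.090, 0.10 and 0.15. Irf1 had 3.84 FPKM in the control and 9.16 with CBD, and 1.67 in the control and 2.99 with 4-OHT. For Csf2ra they were Tor2a, Ptpmt1 and Srprb, at 0.016, 0.026 and 0.067, and for Il3ra Pdia6, Nudt18 and Slc25a14, at 0.065, 0.082 and 0.096. For Il2rg they were the DNA repair gene Xpa, the prefoldin subunit gene Pfdn5 and the adaptor gene Dok2, all at 0.051 to 0.054. Il3ra was under 1 FPKM in every column, so its distances depend on the 0.1 FPKM added. Its log2 fold with CBD was 1.13, and 1.52 with 0.01 FPKM added. With only 4 columns, such likeness is a description.

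A promoter window of RefSeq (GRCm38.p6) was matched for 7 of the 8 genes, all but Csf2rb. The 250 bases before the start were searched on both strands for the E-box CANNTG, the motif of the E proteins that Id1 keeps off DNA, for the STAT motif TTCNNNGAA and for the GATA motif GATAA. Csf2rb2 was the only one of the 7 with the STAT motif, which is held by 7.02% of all 32851 windows of this length. The E-box was present in Csf2ra, Csf2rb2, Il6ra and Il6st and in 66.2% of all windows, and the GATA motif in Csf2rb2 and Il6ra and in 22.6%. The windows of Il2rg, Csf3r and Il3ra held none of these letters, and for Il3ra alone of the 7 the bases after the start were not found in a GENCODE vM21 transcript of the gene. The Csf2rb2 window, at chr15:78305722-78305971 on the minus strand of GRCm38.p6, is shown because it holds a match to each motif, with the matches in capitals and none overlapping another. From left to right they are the E-box, the GATA motif on the opposite strand and the STAT motif, which begins 15 bases before the start:

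Csf2rb2 promoter: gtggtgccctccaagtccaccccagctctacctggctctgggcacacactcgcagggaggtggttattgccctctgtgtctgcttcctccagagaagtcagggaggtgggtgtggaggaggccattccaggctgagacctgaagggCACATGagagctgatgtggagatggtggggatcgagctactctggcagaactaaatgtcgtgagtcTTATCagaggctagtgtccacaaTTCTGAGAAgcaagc

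A match describes these letters only, and neither table measures binding of a factor.

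Partner receptors and ligands of these chains were mostly low. Il5ra, the IL-5 alpha chain gene, stood at 0.290 FPKM or less, and the ligand genes Il3, Csf2 and Il5 at 0.407 FPKM or less, in every column, and none of these passed a test. A list of 9 genes around gp130 held partner receptors, the related receptor genes Il12rb1, Il12rb2 and Il23r, and the cytokine subunit gene Ebi3. None of its 7 tested genes changed with CBD, and 2 of 6 rose with 4-OHT: Lifr, the LIF receptor, from 1.53 to 3.51 FPKM (q = 1.75e-14, the authors' deposited table), and Il27ra, the IL-27 receptor, from 1.44 to 2.83 (q = 1.24e-07, the authors' deposited table). Both are below the other table's control, at 5.35 and 5.67 FPKM. Of 9 genes of gp130 and G-CSF ligands, 1 of 5 tested rose with CBD and 2 of 6 with 4-OHT. Osm, the oncostatin M gene, rose with CBD from 35.5 to 56.7 FPKM (q = 0.0380, the authors' deposited table). It also rose with 4-OHT from 13.0 to 19.1 (q = 2.45e-10, the authors' deposited table), as did Lif, from 0.496 to 1.29 (q = 2.92e-08, the authors' deposited table). The 4-OHT values of Osm and Lif are below the other control, at 35.5 and 4.27 FPKM.

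The list of 9 genes for partner receptors of the common gamma chain also held Crlf2 and Il13ra1, which encode no partner of that chain. Its summed levels were between 39.7 and 129 FPKM in the 4 columns. Il9r, the IL-9 receptor, fell with CBD from 83.5 to 51.9 FPKM (q = 0.00152, the authors' deposited table), a value above the other control by a log2 fold of 0.92, and rose with 4-OHT from 27.4 to 31.3 (q = 0.00129, the authors' deposited table). Il4ra, the IL-4 receptor alpha chain, rose with CBD from 11.0 to 26.3 FPKM (q = 7.72e-06, the authors' deposited table). The TSLP receptor gene Crlf2, whose product resembles the gamma chain, rose with CBD from 16.9 to 45.1 FPKM (q = 1.14e-05, the authors' deposited table). In all, 3 of 7 tested genes of this list rose and 1 fell with CBD, and 2 of 4 rose with 4-OHT, Il9r and Il15ra, the latter from 0.258 to 1.03 FPKM (q = 0.0235, the authors' deposited table). Both are lower with 4-OHT than in the other control, at 83.5 and 3.72 FPKM. Il2rb, 1 of the 3 that rose with CBD, had 0.0266 FPKM in its control and was not tested with 4-OHT. It may thus have entered the test through its CBD value of 0.372 FPKM. Of 6 gamma chain ligands only Il4 was above 1 FPKM. It rose with CBD from 77.8 to 133.6 FPKM (q = 0.0352, the authors' deposited table) and with 4-OHT from 14.6 to 27.8 (q = 6.31e-11, the authors' deposited table). The 4-OHT value of Il4 is lower than the 77.8 FPKM in the control of the CBD table.

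Of 11 JAK and STAT genes, 1 of 9 tested rose and 2 fell with CBD, and 7 of 10 rose and 1 fell with 4-OHT. Jak2, the main kinase of the beta chain, fell with CBD from 38.5 to 26.8 FPKM (q = 0.00390, the authors' deposited table), as did Stat5a, from 64.2 to 43.7 (q = 4.53e-09, the authors' deposited table). With 4-OHT the gamma chain kinase gene Jak3 rose from 2.14 to 3.87 FPKM (q = 9.56e-12, the authors' deposited table), and Tyk2 from 6.12 to 8.99 (q = 4.26e-12, the authors' deposited table). Stat2 rose with 4-OHT from 3.01 to 6.63 FPKM (q listed as 0, the authors' deposited table). Of the 7 genes that rose with 4-OHT, 3 also stood above the other control column, Stat2 among them. Jak3 and Tyk2 stood below that column, by log2 folds of −1.26 and −0.59, and Jak1, which fell, is not below it. Jak2 and Stat5a with CBD are below it, Jak2 by a log2 fold of only −0.04.

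Among 24 feedback and adaptor genes, 7 of 22 tested rose and 2 fell with CBD. Pim2, a survival kinase, rose from 16.7 to 87.8 FPKM (q listed as 0, the authors' deposited table), Socs3, an inhibitor of gp130 signalling, from 1.70 to 8.71 (q = 1.25e-05, the authors' deposited table), and Socs5 from 0.203 to 2.18 (q = 9.62e-05, the authors' deposited table). With 4-OHT 10 of 24 rose and 2 fell, led by the STAT5 targets Cish, from 23.6 to 39.4 FPKM, and Pim1, from 63.7 to 98.8 (both q listed as 0, the authors' deposited table), and by Socs1, from 10.6 to 15.7 (q = 7.07e-07, the authors' deposited table). Of these 10, only 1, Socs1, also stood above the other control column. All 7 that rose with CBD did, as did 98.5% of all genes that rose with CBD. Of the 2 falls in each comparison, 1 kept its direction against that column, and the fall of the adaptor gene Gab2 with CBD turned to a log2 fold of 0.10. The median log2 folds of the list were −0.07 with CBD and 0.15 with 4-OHT.

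Of 21 other receptors of blood cells, 5 of 17 tested rose and none fell with CBD, and 5 of 16 rose and 6 fell with 4-OHT. Csf1r, the M-CSF receptor of monocytes and microglia, rose with CBD from 0.0102 to 2.16 FPKM (q = 1.29e-05, the authors' deposited table), and belongs to the microglia and macrophage lists described above. The IL-10 receptor gene Il10ra rose with CBD from 0.407 to 2.43 FPKM (q = 0.00713, the authors' deposited table), and Tgfbr1, a TGF-beta receptor, from 3.14 to 9.34 (q = 8.71e-06, the authors' deposited table). With 4-OHT the interferon gamma receptor genes Ifngr1 and Ifngr2 rose from 1.97 to 3.65 FPKM and from 13.1 to 17.8 (q = 1.08e-06 and q = 2.52e-07, the authors' deposited table), and Tgfbr2 fell from 3.31 to 1.98 (q = 5.37e-11, the authors' deposited table). Of the 5 that rose and the 6 that fell with 4-OHT, 3 each kept that direction against the other control column, Ifngr1 and Tgfbr2 not among them.

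Of 11 transcription factor genes known to act on such receptor genes, 1 of 8 tested rose and 2 fell with CBD, and 3 of 7 rose and 3 fell with 4-OHT. Runx1 fell with CBD from 92.6 to 47.4 FPKM (q = 7.68e-07, the authors' deposited table), a value above the other control by a log2 fold of 0.32. Myb fell from 107 to 65.5 (q = 0.00530, the authors' deposited table), and Gfi1 rose from 0.338 to 3.53 (q = 0.000104, the authors' deposited table). Sfpi1, the PU.1 gene, rose with 4-OHT from 28.6 to 39.9 FPKM (q = 6.79e-10, the authors' deposited table), and Gata2 from 51.3 to 59.9 (q = 0.000517, the authors' deposited table), while the C/EBP beta gene Cebpb fell from 3.46 to 2.31 (q = 0.00647, the authors' deposited table). Of the 6 changes with 4-OHT, the 3 falls kept their direction against the other control column and the 3 rises did not. The C/EBP alpha gene Cebpa, a regulator of Csf3r, had 0.349 FPKM with CBD and is listed at 0 elsewhere. Of 7 genes for receptor shedding and turnover, Usp8 fell with CBD from 25.0 to 14.4 FPKM (q = 0.0351, the authors' deposited table) and Ubb rose with 4-OHT from 776 to 871 (q = 0.0154, the authors' deposited table), below the 1234 FPKM of the other control, and no other of the 6 tested passed.

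**Figure D4:**
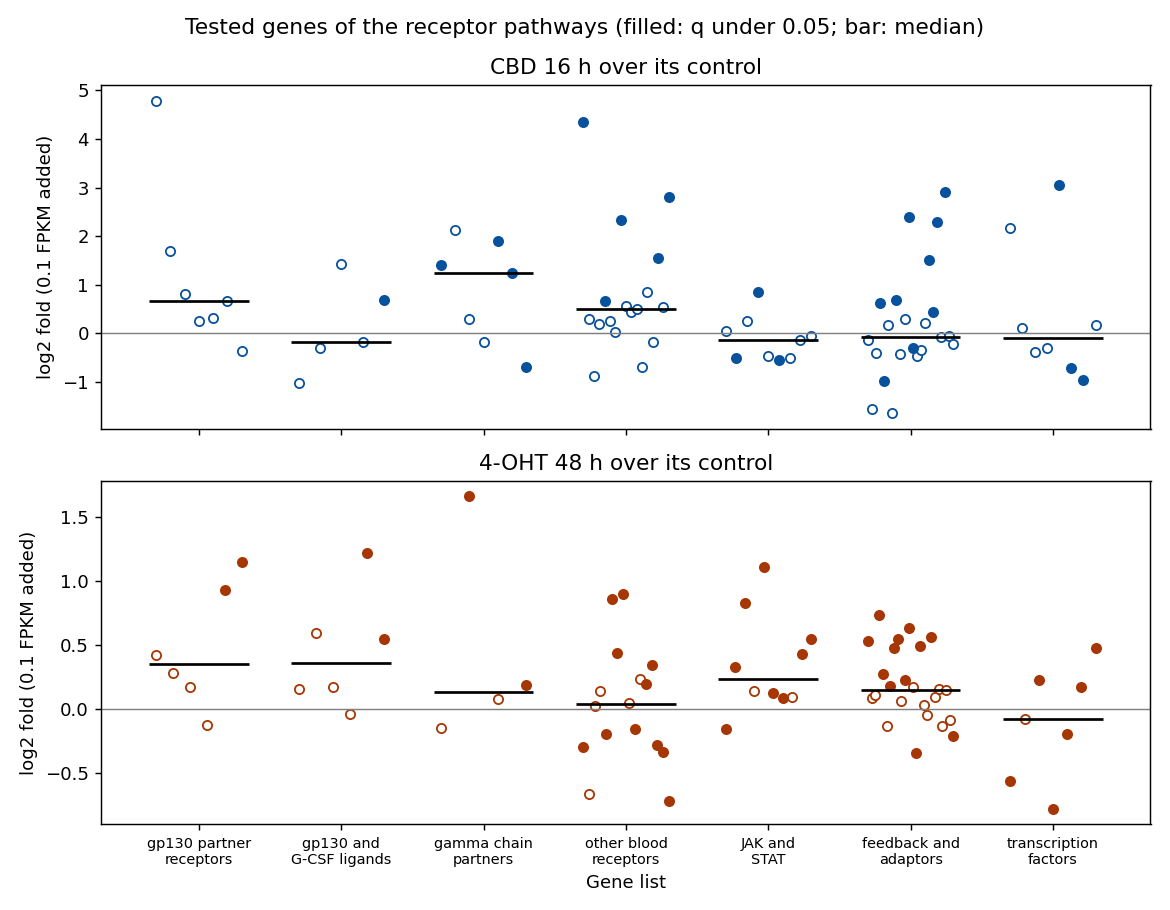
Log2 fold over the own control (0.1 FPKM added) of the tested genes of 7 lists, with CBD above and 4-OHT below on separate scales, filled where q is under 0.05, with a bar at the median. The JAK and STAT median is −0.13 with CBD and 0.23 with 4-OHT. The gamma chain partner list has medians of 1.24 over 7 tested genes with CBD and 0.14 over 4 with 4-OHT. Its members Il2rb and Il13ra1 were not tested with 4-OHT. They may have entered the test through their CBD values of 0.372 and 0.338 FPKM. The list also holds Crlf2 and Il13ra1, which encode no partner of that chain and have log2 folds of 1.41 and 2.13 with CBD.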

How the data were processed

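RNA-seq was made from 6 samples in 3 groups by the Qiagen RNeasy Plus mini kit and Illumina protocols, per the labels. Per the submitters' processing notes, reads were aligned with Bowtie 0.12.2 to mm9 and groups were compared with Cuffdiff. The version and settings of Cuffdiff and the gene models are not stated. The authors deposited FPKM values, 1 per group and table, with the p-value and q-value of their test. Recomputing q from the deposited p over genes with status OK, which are the genes called tested, changed it by at most 1.52e-06. Because the tables hold no counts or values per library, no test of differences was added, the planned limma fit was not run, and depth and precision are unknown.

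Log2 folds were computed with 0.1 FPKM added (Python 3.11.15, pandas 2.3.3, numpy 2.4.6). Gene starts were raised by 1 from the deposited positions, since end minus start equals the RefSeq gene length in 6275 genes and that length minus 1 in 432. Transcript lengths, for a trend of log2 fold over 20 bins of length, come from GENCODE vM21 and cover 97.9% of genes. List members under an older symbol were matched through RefSeq synonyms, and the BH adjustment and length trend were tested on simulated data. Of each list, up to 3 genes per comparison that passed and reached 1 FPKM in a group are named, by the largest absolute log2 fold. Cpa3, Hdc, Snap25, Mog, P2ry12, C1qc, Tmem119, C1qa, Trem2, Olfml3, Il13ra1, Il2rb, Cebpa and genes named for levels alone were chosen with their values in view. The 8 receptor genes and all lists were chosen with earlier results of these data known. Alternatives were other pseudocounts, a q under 0.01, a minimum of 1 FPKM, the other control column, median centring and removal of the length trend. Lymphoid, erythroid and Y-linked marker lists were measured too, and their results are in the closing section. Other listed genes are given in counts, and some are not reported here.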

Additional observations from a re-analysis of the deposited data

How the results depend on the processing

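The count of receptor genes that rose stayed at 2 with CBD and 3 with 4-OHT at a q under 0.01 and with a minimum of 1 FPKM. Pseudocounts, median centring and removal of the length trend leave the authors' q as it is and bear on the folds alone. None of the 5 called folds changed sign with centring or without the length trend. With the control column of the other table it stayed at 2 with CBD and went to 0 with 4-OHT, where the log2 folds of Csf2rb, Csf2rb2 and Il2rg turned to −0.39, −0.27 and −0.17. The cause was not tested. Over the tested genes that reached 1 FPKM in either group of a table, the median log2 fold was 0.19 with CBD and 0.04 with 4-OHT. Relative to it the CBD folds of Il2rg and Il6st were 0.59 and 3.54. With the length trend removed they were 0.53 and 4.48. The pseudocount bears on the low genes: the CBD fold of Il6st was 3.73 with 0.1 FPKM, 5.33 with 0.01 and 1.36 with 1. At a q under 0.01 the pathway counts moved by over 1.5 times in 9 cases. With CBD the feedback and adaptor genes went from 7 rises to 4 and from 2 falls to 1, and the rises of Osm and Il4 and the fall of Usp8 were lost. With 4-OHT the falls among the other blood receptors went from 6 to 3 and the rises of gamma chain partners from 2 to 1, and the fall of Jak1 and the rise of Ubb were lost. Without the length trend 1 of the 2 feedback falls with CBD turned. Genes without a test gave no value under the q and FPKM limits. No paired analysis was possible because the tables give 1 value per group and the columns carry no replicate number. Leaving out a replicate could not be run for the same reason.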

Other observations

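Markers of other blood cells give further values for these columns. Of 12 lymphoid markers, 2 of 3 tested rose with CBD, Nkg7 from 24.5 to 93.6 FPKM and Thy1 from 0.0654 to 14.3, and Cd3e, Ms4a1 and Klrb1c are listed at 0 in all 4 columns. Of 10 erythroid markers, 3 rose and 3 fell with CBD, and 1 rose and 2 fell with 4-OHT. Against the other control column 1 of the 3 rises and all 3 falls with CBD kept their direction (Hbb-b2 turned to a log2 fold of −0.07 and Alas2 to −0.33), as did the rise and 1 of the 2 falls with 4-OHT (Hbb-b2 turned to 1.22). The summed FPKM of 4 Y-linked genes was 1.97 with CBD and between 0.0152 and 0.0393 in the other columns. The IL-33 receptor gene Il1rl1, in the mast cell and basophil list, had 278 FPKM in the control and 504 with CBD without passing the test (q = 0.400, the authors' deposited table), and rose with 4-OHT from 237 to 301 (q = 4.48e-08, the authors' deposited table), a value above the other control column too.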
